A study of Mus musculus with 8 samples.

Results

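The cytosolic ribosomal proteins are the protein part of the ribosome that translates mRNAs outside mitochondria. They were taken as every probe set that the platform annotation gives to a single gene named Rpsa, Rplp0 to Rplp2, or by the prefix Rpl or Rps and a number, with an optional a, l or x. The rule found 100 of 45101 probe sets, for 46 of 18193 genes with a probe set of their own. Of these genes, 22 encode proteins of the small 40S subunit or their paralogs and 24 of the large 60S subunit. A further 110 probe sets name a ribosomal protein gene together with other genes, and 28 ribosomal protein genes occur only there, so the members are a part of the ribosome and not all of it.

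The study measured RNA of the genital tubercle, from which the external genitalia of both sexes develop, in FVB/N mouse embryos at 14 days post coitum (Theiler stage 22). There were 4 male and 4 female samples, unpooled per the labels, each amplified in 2 rounds and hybridised to its own Affymetrix MOE430 array. Values are deposited intensities on a linear scale, and a difference is male minus female on the log2(intensity + 16) scale. The probe sets of different genes bind their targets unequally, so intensities were compared between samples and not between genes.

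A ribosome is assembled in the nucleolus from ribosomal RNAs and close to equal numbers of most ribosomal proteins, and proteins made in excess are degraded. The mRNAs of most ribosomal proteins start with a C followed by a run of pyrimidines, the 5′ terminal oligopyrimidine (TOP) tract. Through this tract the mTOR pathway and Larp1 control their translation and stability together, and the Rpl5, Rpl11 and Rpl23 proteins can bind Mdm2 when ribosome assembly fails.

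The starts of some member genes are shown because the tract is the sequence known for joint control of these mRNAs. RefSeq promoter windows of GRCm38.p6 were found for 40 of the 46 members, and each line gives the 15 bases before and the 15 bases after the annotated start, with the longest tract (a C and at least 4 further C or T) in capitals. Rps10, Rps9, Rplp2, Rpl35 and Rpl38 were called lower in males, Rps6, Rpl13a and Rpl27a were not called, and Rpl39l was called higher in males. Rps15 and Rpl37a, both lower in males, and Rps4x, which was not called, hold no such tract in this window.
Rps10 (chr17:27635230-27635259, minus strand): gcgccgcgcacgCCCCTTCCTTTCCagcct
Rps9 (chr7:3704026-3704055, plus strand): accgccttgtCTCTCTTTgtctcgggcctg
Rplp2 (chr7:141447636-141447665, plus strand): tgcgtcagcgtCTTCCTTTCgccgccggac
Rpl35 (chr2:39005117-39005146, minus strand): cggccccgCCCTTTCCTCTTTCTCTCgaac
Rpl38 (chr11:114668565-114668594, plus strand): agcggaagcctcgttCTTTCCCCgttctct
Rps6 (chr4:86857353-86857382, minus strand): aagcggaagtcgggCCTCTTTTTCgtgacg
Rpl13a (chr7:45128731-45128760, minus strand): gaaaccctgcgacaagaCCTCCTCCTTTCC
Rpl27a (chr7:109519180-109519209, plus strand): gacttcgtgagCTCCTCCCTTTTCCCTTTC
Rpl39l (chr16:10170213-10170242, plus strand): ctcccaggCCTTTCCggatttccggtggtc
Rps15 (chr10:80292416-80292445, plus strand): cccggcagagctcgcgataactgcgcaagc
Rpl37a (chr1:72711245-72711274, plus strand): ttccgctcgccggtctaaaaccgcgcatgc
Rps4x (chrX:102189377-102189406, minus strand): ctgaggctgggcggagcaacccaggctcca

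A gene with several annotated starts was counted if the window of any of them held the match, while the lines above show a single start per gene. The same counting was used for all genes. A tract lay in such a 30-base window of 28 of 40 member genes (70%), against 40.3% of 27025 genes in the promoter table. A tract of at least 8 bases was found for 18 of 40 members (45%), against 10.8% of all genes. The bases from the annotated start onward were a C and at least 4 further C or T in 8 members (20%), against 3.01% of all genes; in each of these but Rpl38 the run also extended upstream of the start. By call, the window held a tract in 15 of 24 genes lower in males (62.5%) and in 9 of 12 genes that were not called (75%), and no test was run on these shares. Over 250 bases before to 50 after the start, on either strand, the ETS factor core CCGGAAG was found in 20 of 40 members (50%), against 9.93% of all genes. The Sp1 box GGGCGG was found in 22 (55%), against 38.2% of all genes, the TATA box TATAAA in 5 (12.5%), against 15.7%, and the YY1 core AAGATGGC in 3 (7.5%), against 3.19%. These matches are letters in a window and not measured binding sites.

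The sex labels were checked on Y-linked genes and Xist before the members were read. Eif2s3y ranged from 4109 to 6136 on the male arrays and from 31.1 to 70.9 on the female arrays, and Uty and Kdm5d did not overlap either. Xist, the RNA that coats the inactive X chromosome, was 343.9, 230.0, 16036 and 619.6 on male arrays 1 to 4, against 32465 to 35816 on the female arrays. Male array 3 thus carried Y-linked RNA at the level of the other males and Xist between both sexes, and counts are also given without it. Arrays of the same sex correlated at 0.966 to 0.985 in log2 values, and those of opposite sex at 0.904 to 0.952. The sexes differed widely over the whole array, with 40.5% of 22519 tested probe sets called in either direction by limma (Benjamini-Hochberg adjusted p under 0.05). The labels do not say whether embryos shared a litter or a processing day, so a p-value reflects only how these 8 samples vary, which can be technical in part, and the number of arrays limits the precision.

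Most cytosolic ribosomal protein genes had lower RNA levels in male than in female tubercles. Of 43 member genes tested on their brightest probe set, 29 fell in males, 1 rose and 13 were not called (limma, Benjamini-Hochberg over all tested probe sets). Over all 11489 tested genes, 28.2% were lower and 14% were higher in males. The median difference was -0.31 over the members, against -0.12 over all tested genes, and it was negative for 39 of 43 members. The members are bright: all 29 lower genes were among the 40 members at or above the upper quartile of mean log2 intensity, where 31.9% of all genes were lower in males. In bulk tissue, fewer cells of a type and less RNA per cell cannot be told apart.

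The differences of the 29 lower genes ran from -1.25 to -0.19 with a median of -0.50, and 5 of them were beyond -1. For 25 of these 29 every male array was below every female array. Among all 43 tested members, called or not, 26 showed this pattern, against 27.3% of all tested genes. The 13 genes that were not called ran from -0.29 to 0.26, so both sets share part of their range. Without male array 3, 28 genes were lower and none was higher in males by limma, with 1 higher at an unadjusted p under 0.05. In that fit 24.3% of all tested genes were lower and 11.6% were higher. Leaving out male arrays 1 and 3 together also gave 28 lower genes, where 25.8% of all tested genes were lower.

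**Figure D1:**
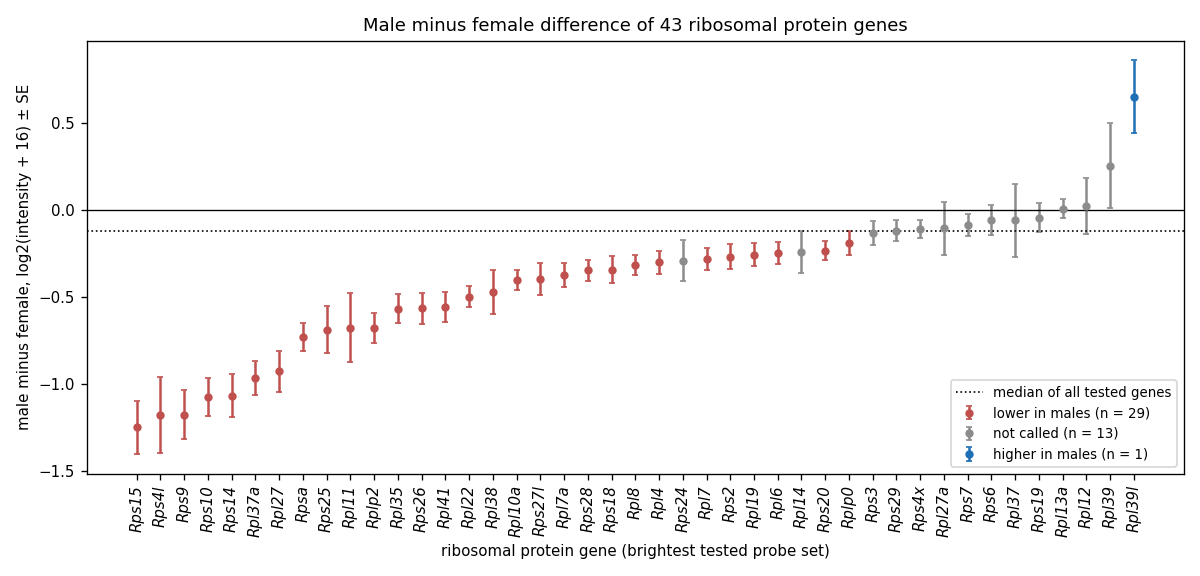
Male minus female difference (log2(intensity + 16), y axis) of 43 cytosolic ribosomal protein genes on their brightest tested probe set, ordered by difference, with standard errors as bars and 4 arrays per sex. The 29 red genes were lower in males and end at -0.19, the 13 grey genes were not called, Rpl39l in blue was higher, and the dotted line is the median of all tested genes at -0.12.

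The shift was present on each array. The median deviation of the 43 genes from their own mean over the 8 arrays was -0.14, -0.20, -0.15 and -0.15 on male arrays 1 to 4, against 0.27, 0.15, 0.17 and 0.13 on female arrays 1 to 4. Over all tested genes it was -0.08 to -0.04 on male arrays and 0.06 to 0.08 on female arrays. Female array 1 gave the highest intensity for 28 of 43 members, and male arrays 2 and 3 gave the lowest for 15 and 12. The replicate spread was small and alike in the sexes, with a median coefficient of variation of 8.48% in males and 8.50% in females.

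Technical and cell type measures were compared between the sexes, and some of them differed. Their part in the ribosomal protein result was not tested beyond the fits named here. The 18S ribosomal RNA control read 26742 ± 5680 in males and 13215 ± 4445 in females (SD, n = 4 each), a log2 difference of 1.05 (exact permutation test, two-sided, p = 0.0286, adjusted p = 0.0571 over 4 array measures, where 0.0286 is the smallest p that 4 against 4 arrays allow). Every male array was above every female array for this control, so 18S signal and sex are largely confounded here. With log2 18S as a covariate, 2 of 43 member genes were called lower in males by limma, and 0.914% of all tested genes were called lower in that fit. The median difference of the members was -0.25 with the covariate, against -0.31 without it, 38 of 43 were negative, and 19 were lower at an unadjusted p under 0.05.

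The array median intensity was 211.7 to 249.4 in males and 184.4 to 206.6 in females (log2 difference 0.21, exact permutation p = 0.0286, adjusted p = 0.0571). The 3′ to 5′ ratio of the Actb control, a measure of RNA integrity and amplification, was 6.97 ± 1.82 in males and 7.38 ± 0.86 in females (SD, n = 4 each; exact permutation p = 0.6). That of the Gapdh control was 14.4 ± 1.94 in males and 16.6 ± 3.15 in females (SD, n = 4 each; exact permutation p = 0.257). The integrity ratios thus overlapped between the sexes, unlike the 18S signal. The Gapdh 3′ control signal itself did not overlap, at 9293 to 12000 in males and 16030 to 17704.5 in females. That of Actb did, at 15333 to 23936 in males and 16796 to 19369 in females. Neither signal was tested.

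Markers of other cell types also differed, where 28.2% of all tested genes were lower and 14% were higher in males. All 6 skeletal muscle markers were higher in males, with a summed intensity of 10959 to 17700 on male arrays and 3357 to 8116 on female arrays. Of 5 neuronal markers 3 were higher and 1 was lower (sums 10492 to 14681 in males, 7965 to 9388 in females), and of 4 endothelial markers 3 were higher and 1 was lower (8026 to 10034 in males, 6090 to 7312 in females). For macrophages 2 of 3 markers were higher (4919 to 5983 in males, 3182 to 3903 in females), and for erythroid cells 1 of 3 was higher and 1 lower (43461 to 53493 in males, 38679 to 41809 in females). The erythroid sum comes mainly from Hbb-y, which was higher in males (0.24), while Hba-x was lower (-1.09) and Alas2 was not called. Myh3 and Nefl were the brightest muscle and neuronal markers and weigh most in those sums. Lower in males were 3 of 4 markers of keratinocytes and urothelium (11587 to 13996 in males, 14382 to 20309 in females) and 4 of 6 proliferation markers (87815 to 91627 in males, 92670 to 112573 in females). Of the 6 tested tubercle markers, 3 (Hoxd13, Isl1 and Shh) were lower in males, with sums of 80972 to 85131 in males and 94781 to 109711 in females. These sums come mainly from Hoxd13, Isl1 and Shh; Osr1 was dim, at 180.5 to 417.0 in males and 153.1 to 264.5 in females, and 1 of the 7 listed markers was below the filter.

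In the 40S subunit, 13 of 20 tested genes were lower in males, none was higher (limma, also at an unadjusted p under 0.05) and 7 were not called, with a median difference of -0.34. For comparison, 28.2% of all tested genes were lower and 14% were higher in males. The largest difference of all members was that of Rps15, a head protein next to the decoding site. Rps15 read 3323, 2697, 2996 and 2444 on male arrays, against 8832, 6472, 6978 and 5319.8 on female arrays. The difference was -1.25 ± 0.15 (SE, limma adjusted p = 0.000141), and the other Rps15 probe set gave -1.34 ± 0.14 (adjusted p = 5.87e-05). The highest male array was far below the lowest female array on both.

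Rps10, another head protein, was read at 15661, 14349, 10395 and 12888 in males, against 29283, 27919, 28096 and 25835 in females. The difference was -1.07 ± 0.11 (SE, limma adjusted p = 5.86e-05). It has 6 tested probe sets, and 5 of them were lower in males by -1.58 to -0.99. The sixth, a dim plain _at probe set, had a difference of -0.35 ± 0.19 (SE, adjusted p = 0.145) although its male and female ranges did not overlap.

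Rps14, a protein of the 40S platform whose human gene is deleted in the 5q- syndrome, read 20554, 13596, 13794 and 13995 in males, against 37088, 29942, 31579 and 29586 in females (-1.07 ± 0.13, limma adjusted p = 0.00012). Male array 1 was the highest of the males for Rps14 and still below every female. Rpsa, also known as the laminin receptor and a late-joining 40S protein, read 18537, 15907, 15771 and 15515 in males, against 30082, 25835, 27987 and 25056 in females (-0.73 ± 0.08, adjusted p = 8.59e-05). Rps25, needed in yeast and human cells for translation from some viral internal entry sites, read 5087, 5159, 3587 and 4892 in males, against 6591, 8987, 7599.7 and 6904 in females (-0.69 ± 0.14, adjusted p = 0.00217). All 3 genes were lower in every male than in every female.

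Rps4l, a paralog of the X-linked Rps4x, read 2918, 1985, 1367 and 1272 in males, against 4489.9, 3809, 4002 and 3946 in females. Its difference was -1.18 ± 0.22 (SE, limma adjusted p = 0.00145), with a male coefficient of variation of 40.2%, the highest among the 43 tested members on their brightest probe sets. Its X-linked parent Rps4x read 37443, 36566, 39884 and 39482 in males, against 42421, 41112, 41945 and 39699 in females. That difference of -0.11 ± 0.05 was not called (adjusted p = 0.116), and the ranges overlapped. Whether the difference of Rps4l was larger than that of Rps4x was not tested, and near copies of this kind can share signal between probe sets.

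Rps28 is a small 40S protein at the mRNA exit. It read 27877, 28834, 30367 and 31192 in males, against 40079.8, 37238, 38009 and 35041 in females (-0.35 ± 0.06, limma adjusted p = 0.00106). Rps27l, a p53-inducible paralog of Rps27, was lower in males on all 3 of its probe sets, by -0.44 to -0.38. On the brightest it read 9457, 9603, 8042 and 10421 in males, against 13618, 11607, 11690.1 and 12349 in females (-0.40 ± 0.09, adjusted p = 0.006). Rps27 itself was below the intensity filter, with 118 to 221 in males and 195 to 237 in females, and was not tested. Neither Rps28 nor Rps27l had overlapping ranges.

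Several 40S proteins with well known roles were not called. Rps6, the substrate of S6 kinase that is phosphorylated after mTOR activation, read 10519, 12019, 10455 and 11939 in males, against 12825, 10869.7, 11878 and 11164 in females (-0.06 ± 0.09, limma adjusted p = 0.62). Rps19, whose human gene is the most often mutated in Diamond-Blackfan anaemia, read 14321, 12953, 12476 and 14916 in males, against 15342, 13303, 14412 and 13196 in females (-0.04 ± 0.08, adjusted p = 0.713). Both genes overlapped widely between the sexes.

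Rps7, which can bind Mdm2, read 38627, 42543, 46202 and 41181 in males, against 45818, 45489, 45923 and 41493 in females (-0.09 ± 0.06, limma adjusted p = 0.292). Rps3, a protein at the mRNA entry that also acts in DNA repair, read 32026, 34374, 35594 and 33004 in males, against 39069, 37884, 38973 and 32111 in females (-0.13 ± 0.07, adjusted p = 0.159). For both, female array 4 was the lowest of the females and lay within the male range. Without that array Rps3 was called lower in males (-0.20, adjusted p = 0.0141 by limma). A p above the threshold does not show that these genes were equal in the sexes. The remaining 40S members were Rps2, Rps18 and Rps26, which were lower in males by -0.27 to -0.56, and Rps24 and Rps29. The last 2 were not called on their brightest probe set (-0.29 and -0.12), though for Rps24 it had no overlap (limma adjusted p = 0.0666). Of all tested probe sets, the brightest included, 3 of 5 for Rps24 and 2 of 3 for Rps29 were lower in males, down to -0.76 and -0.53. The lower ones were all among the dimmer probe sets.

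**Figure D2:**
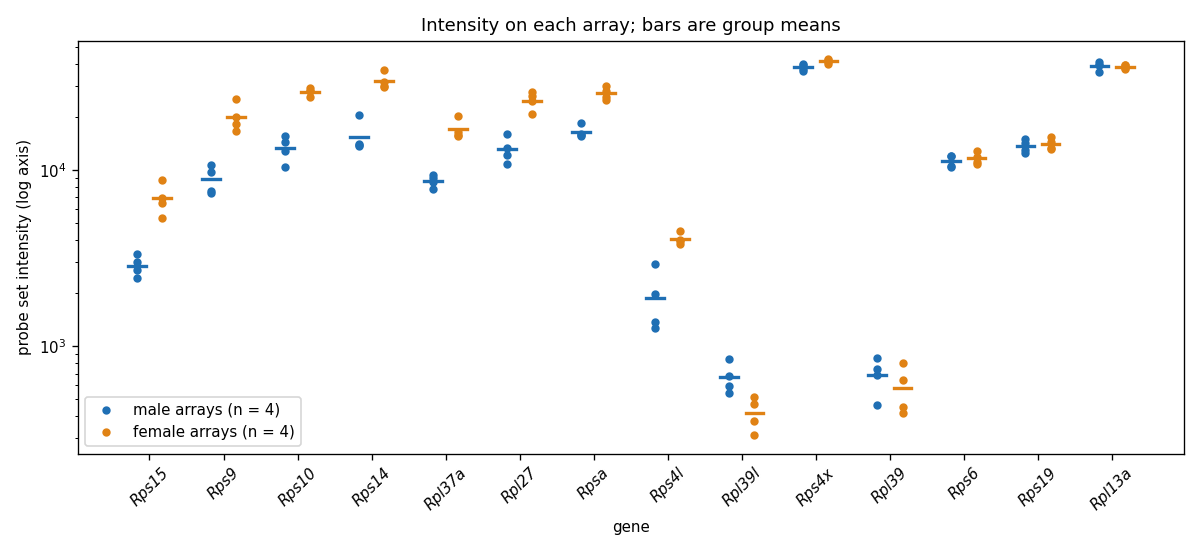
Intensity of the brightest probe set (log y axis) on each of the 4 male and 4 female arrays for 14 cytosolic ribosomal protein genes, with bars at the group means. Male arrays lie below all female arrays from Rps15 to Rps4l and above them for Rpl39l, while both sexes overlap for Rps4x, Rpl39, Rps6, Rps19 and Rpl13a.

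In the 60S subunit, 16 of 23 tested genes were lower in males, 1 was higher and 6 were not called, with a median difference of -0.30. The shares over all tested genes were 28.2% lower and 14% higher. Rpl37a, a small zinc-binding protein, had the largest difference of the 60S members. It read 9031, 8557, 7771 and 9337 in males, against 20286, 15882, 16393 and 15561 in females (-0.97 ± 0.10, limma adjusted p = 5.86e-05). Rpl27 read 16042, 13353, 10852 and 12129 in males, against 26129, 24559, 27739 and 20718 in females (-0.93 ± 0.12, adjusted p = 0.000189). On these brightest probe sets neither gene had any overlap between the sexes. The dimmer Rpl27 probe sets did overlap. They gave -0.48 ± 0.11 (limma adjusted p = 0.0061) and -0.23 ± 0.13, which was not called (adjusted p = 0.194).

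The stalk is the part of the 60S subunit that recruits the elongation factors. Its base protein Rplp0 read 34779.7, 29919, 27609.6 and 31401 in males, against 35526, 34113, 34645 and 36253 in females. This was the smallest called difference, -0.19 ± 0.07 (SE, limma adjusted p = 0.0465). Male array 1 lay within the female range, and the call was lost in 7 of 8 fits that left out 1 array, with adjusted p up to 0.125.

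Rplp2, which forms the mobile stalk with Rplp1, was lower by more. It read 20654, 18132, 16675 and 18505 in males, against 32729.9, 30887, 28875 and 25777 in females (-0.68 ± 0.09, limma adjusted p = 0.000179). Rpl12, which binds beside the stalk base, read 4309.8, 3882, 4052 and 4529 in males, against 3012, 5606, 4426 and 3814 in females (0.03 ± 0.16, adjusted p = 0.911). The stalk thus held a clear, a marginal and an uncalled gene.

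Rpl11, the only one of Rpl5, Rpl11 and Rpl23 with a probe set of its own, read 13421, 7403, 16683 and 10735 in males, against 18805, 22486, 16294 and 16866 in females. The difference was -0.68 ± 0.20 (SE, limma adjusted p = 0.0173). Male array 3 lay above the lowest female, and without female array 2 the call was lost (adjusted p = 0.0513).

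Around the tunnel exit, where the nascent chain leaves, 4 of 5 tested genes were lower in males (28.2% over all tested genes), with a median of -0.47. Rpl38, a protein whose loss in mice changes axial patterning, read 15581, 15083, 12417 and 20895 in males, against 23033, 19957, 20763 and 23528 in females (-0.47 ± 0.13, limma adjusted p = 0.0122). Male array 4 overlapped the females. Rpl35, which helps to dock the signal recognition particle, was lower in males on 5 of 6 probe sets. The brightest read 15413, 12204, 12372 and 13272 in males, against 21146, 19176, 18670 and 19639 in females (-0.57 ± 0.08, limma adjusted p = 0.000425). Its dimmest, a plain _at probe set, had the opposite sign and was not called (0.50 ± 0.24, adjusted p = 0.114). Rpl39, an X-linked tunnel protein, was the one not called, at 463.7, 745.4, 683.6 and 862.2 in males, against 417.5, 645.1, 451.1 and 805.5 in females (0.26 ± 0.25, adjusted p = 0.426).

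Rpl39l, the testis-enriched paralog of Rpl39, was the only member gene higher in males on its brightest probe set. It read 594.5, 850.6, 677.7 and 540.5 in males, against 313.4, 374.4, 468.6 and 518.4 in females (0.65 ± 0.21, limma adjusted p = 0.0255). Every male was above every female, by little between male array 4 and female array 4. The call was lost in 4 of 8 fits that left out 1 array, with adjusted p up to 0.0781. The muscle paralog Rpl3l was at 8 to 40 in males and 4 to 31 in females and was not tested.

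Rpl10a, found to be unequally present among ribosomes of mouse embryonic stem cells, read 24763, 22849, 23081 and 24101 in males, against 33231, 30692, 31338 and 29994 in females (-0.40 ± 0.06, limma adjusted p = 0.000364). Rpl7 read 32350.3, 32096, 35955 and 32630.0 in males, against 44024, 40323, 40314 and 37254 in females (-0.28 ± 0.06, adjusted p = 0.00435). Both were lower in every male than in any female. Rpl13a, which in human cells leaves the ribosome under interferon gamma to silence inflammatory mRNAs, read 39372, 35827, 40954 and 39479.8 in males, against 39595, 37447, 39372 and 38059 in females (0.01 ± 0.06, adjusted p = 0.907). Its ranges overlapped, and a dimmer Rpl13a probe set was lower in males (-0.30 ± 0.10, adjusted p = 0.0268). Among the remaining 60S members, Rpl4, Rpl6, Rpl7a, Rpl8, Rpl19 and Rpl41 were lower in males on their brightest probe set, by -0.24 to -0.55. Rpl14, Rpl27a and Rpl37 were not called. Rpl41 was lower on 2 of its 4 probe sets, and the others had differences of 0.28 and 0.42 and were not called.

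The probe sets of a single gene did not always move alike. Of 88 tested member probe sets, 59 were lower, 4 were higher and 25 were not called, where 21.9% of all tested probe sets were lower and 18.7% were higher. The counts by probe set type were as follows, with no test between types. With the plain suffix _at, 8 of 21 member probe sets were lower and 2 were higher (19.1% lower over all _at probe sets), while with _x_at, which marks probes that can cross-hybridise, 29 of 38 were lower and none was higher, also at an unadjusted p under 0.05 (29.5% lower over all _x_at). With _a_at, for transcripts of the same gene, 20 of 26 were lower and 1 was higher (29.6% lower over all _a_at). Ribosomal protein genes have many processed pseudogenes, and whether cross-hybridisation had a part was not tested.

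**Figure D3:**
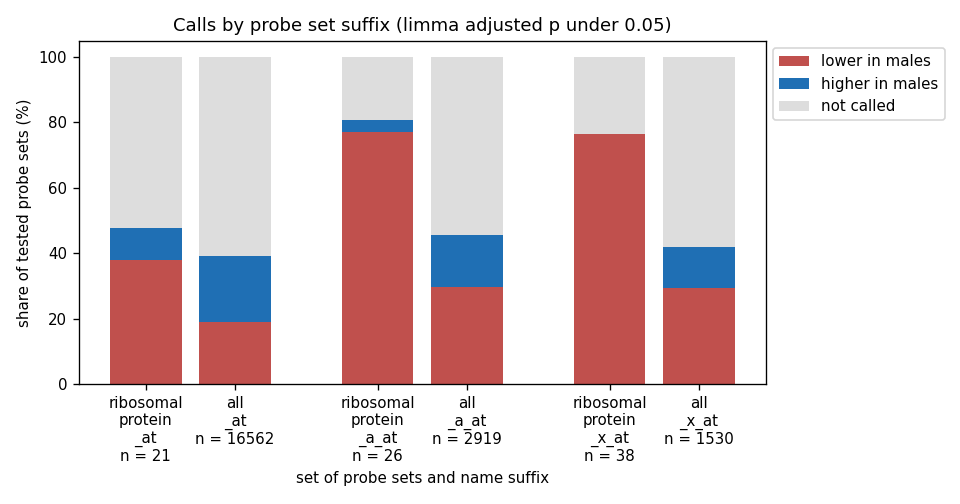
Share of tested probe sets (%, y axis) called lower in males, higher in males or not called by limma, for cytosolic ribosomal protein probe sets beside all probe sets of the same name suffix. Members were lower in males in 8 of 21 _at, 20 of 26 _a_at and 29 of 38 _x_at probe sets.

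Of 19 members with at least 2 tested probe sets, 13 were negative on each and 6 had both signs. Calls in opposite directions were found for 2 of the 15 members with at least 2 called probe sets, against 24.5% of all such genes. These were Rps20 and Rpl22. Rps20, a 40S head protein, read 33986, 33648, 36828 and 35553 in males on its brightest probe set, against 44189.8, 39474, 40640.2 and 40161 in females (-0.23 ± 0.06, limma adjusted p = 0.00661). That call was lost without a mean-variance trend in the fit (adjusted p = 0.0773). Another Rps20 probe set was also lower in males (-0.25 ± 0.06, limma adjusted p = 0.00552). Both lower Rps20 probe sets were of the _x_at type, and both higher ones were not. The dim _a_at probe set of Rps20 was higher in males, with 2302, 2189, 2689 and 2323, against 1344, 1464, 1027 and 1618 in females (0.81 ± 0.15, limma adjusted p = 0.00166). So was its _at probe set (0.48 ± 0.15, adjusted p = 0.0229).

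Rpl22, a 60S protein without which mice can live and which restrains its paralog Rpl22l1, was lower on 2 of its probe sets. The brightest read 29406, 28062, 28643 and 27974 in males, against 43839, 39585, 40952 and 36928 in females (-0.50 ± 0.06, limma adjusted p = 0.000143). Another read 20537, 19263, 19068 and 19041 in males, against 15829, 16003, 16486 and 16887 in females (0.26 ± 0.06, adjusted p = 0.00664). No array overlapped on either, so the 2 probe sets of Rpl22 separated the sexes in opposite directions.

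The ratio of the brightest to the other probe sets was tested directly. It changed between the sexes for 5 of 19 members (limma, Benjamini-Hochberg over 4934 genes), where 29% of all genes did (21.1% lower and 7.9% higher in males). The ratio was lower in males for Rps9 (-1.39 ± 0.23, adjusted p = 0.004) and Rps20 (-0.58 ± 0.12, adjusted p = 0.010). It was higher in males for Rpl37a (0.60 ± 0.15, adjusted p = 0.019), Rpl7 (0.40 ± 0.11, adjusted p = 0.030) and Rps28 (0.37 ± 0.12, adjusted p = 0.042). In these last 3 genes the dimmer probe sets had the larger differences: -1.89 and -1.25 against -0.97 for Rpl37a, -0.39 and -0.97 against -0.28 for Rpl7, and -0.70 and -0.72 against -0.35 for Rps28.

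Rps9, a 40S body protein that in yeast supports the accuracy of translation, was the clearest case of a gene read by 1 probe set. Its brightest, of the shared _s_at type, read 10669.6, 9756, 7581 and 7446 in males, against 25169, 19971, 18261 and 16717 in females (-1.18 ± 0.14, limma adjusted p = 0.000137). Its other probe sets had differences of 0.20 ± 0.19 and 0.22 ± 0.20 and were not called (adjusted p = 0.414 and 0.399). The direction for Rps9 thus rests on the brightest probe set.

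**Figure D4:**
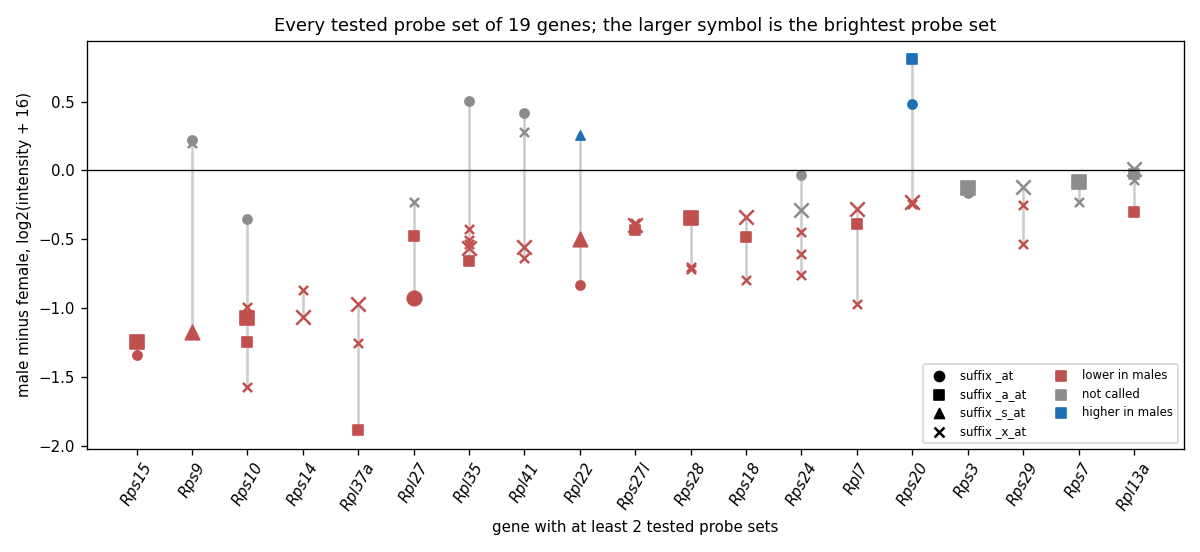
Male minus female difference (log2(intensity + 16), y axis) of each tested probe set of the 19 genes with at least 2, with symbol shape for the name suffix and colour for the limma call. Larger symbols mark the brightest probe set, and Rps20 and Rpl22 have called probe sets on both sides of 0.

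Genes near the family were read in the same fit. Of the ribosomal proteins outside the naming rule, Fau, which encodes the 40S protein Rps30 as a fusion, was 2330 ± 435 in males and 5453 ± 819 in females (SD, n = 4 each; -1.23 ± 0.15). Rpl7l1 was also lower, at 6890 ± 1816 in males and 9895 ± 599 in females (-0.55 ± 0.14). Rpl22l1 was higher, at 11720 ± 3861 in males and 7862 ± 615 in females (0.52 ± 0.18). Of the 104 tested probe sets that name a ribosomal protein gene with other genes, 58 were lower and 8 were higher in males. Of all tested probe sets, 21.9% were lower and 18.7% were higher. Of 76 mitochondrial ribosomal protein genes 49 were lower (64.5%) and 2 were higher, with a median of -0.51. The share of lower genes was 67.4% among the cytosolic members and 28.2% over all tested genes, of which 14% were higher. The difference of the mitochondrial genes from the cytosolic members was not tested.

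Of 15 tested genes of other mRNAs with a TOP tract, 7 were lower (28.2% over all tested genes), 2 were higher and 6 were not called, with a median of -0.17, and the difference from the members was not tested. Lower in males were Eef1d, an exchange factor subunit of elongation (-0.57), Naca, which binds nascent chains (-0.57), Vim, encoding vimentin (-0.39), and Eif3f (-0.26). Higher in males were Hnrnpa1, an RNA-binding splicing factor (0.72), and Eif3e, an initiation factor subunit (0.16). Of 7 tested regulators of TOP mRNAs, Mtor (-0.46), its partner Rptor (-0.88) and the translation repressor Eif4ebp1 (-1.11) were lower in males. Larp1 (0.42), Tia1 (0.42) and Tial1 (0.56), which bind TOP mRNAs, were higher. So 3 of these 7 regulators were lower and 3 were higher, against 28.2% and 14% of all tested genes.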

How the data were processed

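Deposited values are linear intensity values from GCOS, the scanner software of Affymetrix, as named in the submitters' processing notes without a version. Each array had a trimmed mean of 1500.0, so the authors' values were not normalized again. They were taken as log2(intensity + 16). Control probe sets (64) were left out, and the 22519 with a mean log2 at or above the median (7.77) were tested with limma 3.58.1 in R 4.3.3 (lmFit, eBayes with trend, sex as the term, all 8 arrays), with Benjamini-Hochberg adjustment over all of them and a threshold of 0.05. A gene was read on its brightest tested probe set. Of the members 88 of 100 probe sets and 43 of 46 genes passed the filter; Rpl3l, Rps16 and Rps27 did not. Genes were named from the platform annotation, 34945 probe sets having a single gene and 932 several. Array measures were compared by exact permutation tests.

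Genes given with values were the 8 called members with the largest difference in each direction, members with calls in both directions or a changed probe set ratio, X-linked members, restricted paralogs with their parents, members with known roles, and up to 4 called examples of each list. Rpl35 and the genes given as remainders of each subunit lie outside this rule and were chosen after their values were seen. Members and lists were chosen with earlier results of these data known. The fit was tested on simulated data. None of the 28 array pairs was identical. The settings tried instead were quantile normalization, pseudocounts of 1 and 64, other filters, no trend, array weights, the replicate block, 18S as a covariate, other probe set choices and leaving out arrays.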

Additional observations from a re-analysis of the deposited data

Results flagged for a closer look

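Single arrays stood apart from the other 3 of their sex, by the gap to the nearest array over the range of the sex, in 6 of 64 groups of 4 arrays examined; chance gives about 1 in 20. Among males these were array 1 for Rps14 (20553.67) and for Rpsa (18537.0), both high, array 3 for Rpl7 (35955.32, high) and array 3 for Rps25 (3586.67, low). Among females array 4 was low for Rps3 (32111.13) and for Rps7 (41492.62). Rps14, Rpsa, Rpl7 and Rps25 were called lower in males without any single array, while Rps3 and Rps7 were not called with all arrays. Without female array 4, Rps3 was called lower in males (-0.20, limma adjusted p = 0.0141, against -0.13 and 0.159 with it).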

How the results depend on the processing

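With 18S as a covariate the lower member genes numbered 2 (Rps10 and Rpl37a), against 29 without it, and the lower probe sets 9, against 59, with 0 genes and 0 probe sets higher; the members' median was -0.25, against -0.31, 38 of 43 were negative and 19 were lower at an unadjusted p under 0.05. Of all tested genes, 0.914% were called lower with this covariate. The covariate separates the sexes, and the cause was not tested. On plain _at probe sets 8 of 21 tested member genes were lower and 2 were higher, with a median of -0.17. Over all 9917 genes read on such probe sets, 25.8% were lower and 15.5% were higher. The single higher gene, Rpl39l, lost its call (0 higher) without a filter and without males 1 and 3, where 2 probe sets were higher. In the unfiltered fit and in the fit without these males, 1 gene was higher at an unadjusted limma p under 0.05. With the upper-quartile filter Rpl39l was not tested, as its mean log2 of 9.07 lay below the cutoff of 10.29. At an unadjusted limma p under 0.05, 0 of the genes still tested with that filter were higher, and 0 genes with 18S. Leaving out 1 array gave 27 to 29 genes lower, 0 to 1 higher, 56 to 59 probe sets lower, 2 to 4 higher and 2 to 5 changed ratios. In these fits 23.0% to 29.8% of all tested genes were lower and 11.5% to 15.6% were higher. Without a mean-variance trend 24 genes and 51 probe sets were lower, where 26.9% of all tested genes were lower. The same replicate numbers did not pair the samples (correlations of -0.13 to 0.04), and the replicate block gave 30 genes lower, 1 higher and 3 changed ratios. With the block, 26.1% of all tested genes were lower and 13.4% were higher.

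Of 545 values of named genes under alternatives, 485 kept direction and call, 39 lost the call, 2 gained it (Rps3 without female array 4, Rps4x with array weights) and 19 changed sign. The sign turned for Rpl12 (-0.046 with array weights, -0.47 with 18S, -0.12 to 0.18 without single arrays), Rpl13a (-0.0186 with array weights, -0.0378 without males 1 and 3, -0.0957 as the mean of probe sets, -0.0158 to 0.0485 without single arrays), Rpl39 (-0.0181 with 18S), Rps19 (0.17 with 18S, -0.0855 to 0.0005 without single arrays) and Rps6 (0.20 with 18S, 0.0389 without males 1 and 3). It also turned for Rps20 (0.20 as the mean of probe sets, 0.48 on plain _at) and Rps9 (0.22 on plain _at). The Actb 3′ to 5′ log2 difference ran from -0.25 to 0.0075 without single arrays. Low signal keeps Rpl3l, Rps16 and Rps27 from a test.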
